A study of Mus musculus with 10 samples.

Results

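The cells described here are the 533 cells that the authors annotated as B cells among 45472 CD45+ cells sorted from mouse brain. They were taken by that label, from the 10 libraries that carry a sample label, and 0 of them also carried a microglia annotation. Outside the microglia, 4925 cells remained, of which 1598 were T cells and 323 were dendritic cells, the populations they are set against below. The dendritic cells comprised 189 cDC2, 102 pDC, 17 migDC, 9 cDC1 and 6 proliferating cells.

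Each library held the brains of 3 pooled mice, 2 males and 1 female, so that a genotype at an age was measured once. Wild-type (WT), Nlrp3KO, APP/PS1 and Nlrp3KO APP/PS1 mice were sampled at 3 months and at 9 months, and WT and Nlrp3KO mice also at 6 months. Nlrp3KO mice lack Nlrp3 in the whole body, and APP/PS1 mice carry transgenes for mutant human amyloid precursor protein and presenilin-1 expressed in neurons. The mice compared were littermates, actinomycin D was present during cell isolation, and each age carried 1 batch number, so that age and batch cannot be told apart. The sort took every CD45+ cell of the dissociated brain, and B cells of blood, meninges and parenchyma cannot be told apart in these data. The comparisons ask whether deletion of Nlrp3, a sensor of the inflammasome, or amyloid disease went with a change in the number, developmental stage or gene expression of brain B cells.

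B cells carry the antigen receptor, an immunoglobulin of heavy and light chains that signals through the partners CD79A and CD79B. They arise from precursors that recombine their immunoglobulin genes with the RAG proteins and first pair the heavy chain with a surrogate light chain made of VPREB1 and IGLL1. Mature naive B cells then carry IgM and IgD, and on activation some become plasma cells, which secrete antibody and lose much of the B cell programme. In mice, B cells at several of these stages have been described at the borders of the brain.

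The label matched its markers. At least 1 UMI (a counted transcript molecule) of Cd79a was found in 99.4% of the cells, of Cd79b in 99.6% and of Ms4a1, which encodes CD20, in 75.6%. Summed over the cells of a type and written in CPM, a gene's UMIs scaled to a fixed total of UMIs of those cells, Cd79a stood at 2551 CPM in B cells, 1.73 in T cells and 8.69 in dendritic cells. Ms4a1 stood at 1188, 0.675 and 1.12 CPM in the same order. Calling a B cell any cell outside the microglia with at least 2 of these 3 genes gave 540 cells, of which 531 carried the label. T cell markers summed to 195 CPM in B cells against 6934 in T cells, and natural killer cell markers to 8.27 CPM. The 9 microglia markers summed to 3631 CPM in B cells against 52719 in microglia, and ran from 123 CPM in WT at 9 months to 8984 CPM in WT at 3 months. The 44 B cells with a doublet score above 0.5, of which 37 came from 3 months, 7 from 6 months and 0 from 9 months, had a median of 26281 CPM of these markers against 314 CPM in the other 489. Without those 44 cells the libraries held 123 to 978 CPM, except WT at 3 months with 4577 CPM. B cells had a median of 4671 UMIs, T cells 5810 and dendritic cells 10638, and the B cells of a library summed to 83321 to 897042 UMIs. No cell barcode occurred in more than 1 library among the B cells, and 9 of the 533 barcodes occurred in another library on a cell of any type.

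The genes furthest above both T cells and dendritic cells came from 3 stages of the B cell lineage at once. The 15 with the largest ratio over the higher of the 2 other types were taken from the 2552 genes with at least 200 UMIs in B cells. They included receptor and lineage genes (Cd79a, Ms4a1, Pax5, Ebf1 and Pou2af1), the surrogate light chain genes Vpreb1 and Igll1, and the early B cell gene Vpreb3. Genes of antibody and its secretion (Jchain, Igha, Ighg1, Igkc and Iglv1) were also among the 15, besides Prg2, the gene of eosinophil major basic protein. Of the Igkc UMIs 81.0% and of the Iglv1 UMIs 95.1% lay in the 15 cells with the most Jchain. These ratios describe a label that was itself made from expression, and no test was run on them. Pax5, the factor that holds cells in the B lineage, stood at 300 CPM in B cells against 0.0964 in T cells and 0.28 in dendritic cells, and was found in 75.4% of B cells. Ebf1, which acts before Pax5, stood at 1575 CPM against 0.964 and 3.93, and was found in 95.3%. Vpreb3, an early B cell gene that many of these cells still carried, stood at 1588 CPM against 0.193 and 0.28, and was found in 73.0%. By contrast Igll1 was found in 10.7% of B cells and Jchain, which joins IgA and IgM into polymers, in 3.19%, so that few cells carried them.

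By gene list, 17 of 18 receptor and co-receptor genes, 10 of 12 transcription factors of the lineage and 15 of 16 early B cell genes were higher in B cells than in both other types. All 6 proliferation genes were also higher there, with Mki67 at 272 CPM against 69.9 in T cells and 43.2 in dendritic cells. MHC class II genes, which present peptides to helper T cells, stood between the types at 11509 CPM summed over 10 genes, against 372 in T cells and 45625 in dendritic cells. Interferon-stimulated genes were higher in B cells than in both other types for 0 of 10 genes and NF-kB genes for 1 of 9. The same count was 9 of 9 for microglia markers, at 3631 CPM in B cells against 2283 in T cells and 2348 in dendritic cells. Erythroid genes gave 4 of 5. The share over all genes was not computed, so these counts describe the lists and do not by themselves mark genes of B cells. Tnfrsf13c, the receptor for the survival factor BAFF, stood at 356 CPM in B cells against 2.22 and 13.5, and Ltb, which encodes lymphotoxin beta, at 601 CPM against 944 in T cells and 36.5 in dendritic cells. Effector cytokines were near the floor: Il10 held 4 UMIs and Tnf 12 UMIs over all 533 cells, and Il1b held 0, where 3 UMIs would be the limit that a count of 0 allows. Tbx21, a factor of age-associated B cells, held 7. Nlrp3 itself held 4 UMIs in 3 B cells, 2 of them in WT at 3 months and 2 in WT at 6 months, and 0 in the 5 Nlrp3KO libraries. At 1.14 CPM in B cells against 21.4 in microglia, its absence in Nlrp3KO B cells could not be checked beyond that.

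The B cells fell into developmental groups that a few genes set apart. Rag1, Rag2 and Dntt recombine the receptor genes, and Vpreb1 and Igll1 build the surrogate light chain. Of the 533 cells, 433 held a UMI of none of these 5 genes, 42 of 1, 18 of 2, 7 of 3, 19 of 4 and 14 of all 5. The 58 cells with at least 2 (10.9%, 95% exact binomial interval 8.37 to 13.8%) are called precursor-gene cells here, a threshold set after the counts were seen. The same rule met 0 of 1598 T cells and 2 of 323 dendritic cells. By counting error only, the first allows up to 0.188% of T cells to meet the rule at their depth. At least 1 of the 5 genes was found in 18.8% of B cells and in 23.5% of the deeper dendritic cells, where it was mostly Dntt at 58.9 CPM. Thinned to 1000 UMIs a cell these shares were 11.8 and 8.36%, the other way round, and at least 2 genes were found in 6.94% of B cells and in 0 dendritic cells. Cells at or above 10 UMIs of Jchain are called Jchain cells. They numbered 15, the lowest of them held 74 Jchain UMIs and the highest outside held 2. Of the rest, 298 cells (55.9%) held Ighd, the heavy chain of IgD, 42 (7.88%) held exactly 1 precursor gene and 120 (22.5%) held none of these. These groups are ranges of counts rather than clusters, and differences in the genes that define them are no finding.

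Igll1 and Vpreb1 lie close to each other on chromosome 16, and 56 and 55 of the 58 precursor-gene cells held them. Their promoters are shown with that of Vpreb3, which was found in all 58 of those cells and in 73.0% of all B cells, so that a Vpreb gene the rule did not use stands beside 2 genes it did use. The windows run from 250 bases before to 50 bases after the start of each gene on the coding strand, from RefSeq on GRCm38.p6, at chr16:16863936-16864235 (minus strand) for Igll1, chr16:16869206-16869505 (minus strand) for Vpreb1 and chr10:75948050-75948349 (plus strand) for Vpreb3. Capitals mark a match to CCCNNGGG, the core letters bound by EBF1, in Igll1 and to the octamer ATGCAAAT, read on either strand, in Vpreb3.
Igll1: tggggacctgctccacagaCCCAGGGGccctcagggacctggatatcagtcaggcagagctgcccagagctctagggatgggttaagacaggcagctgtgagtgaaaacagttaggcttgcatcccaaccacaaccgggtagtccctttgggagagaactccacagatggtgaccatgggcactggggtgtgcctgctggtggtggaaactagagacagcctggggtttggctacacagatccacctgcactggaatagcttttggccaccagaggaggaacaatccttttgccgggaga
Vpreb1: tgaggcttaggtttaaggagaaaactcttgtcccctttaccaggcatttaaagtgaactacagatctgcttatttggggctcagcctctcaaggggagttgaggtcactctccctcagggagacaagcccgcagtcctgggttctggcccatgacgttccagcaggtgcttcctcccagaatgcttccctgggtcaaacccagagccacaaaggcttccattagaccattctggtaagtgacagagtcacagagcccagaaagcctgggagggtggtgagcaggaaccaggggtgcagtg
Vpreb3: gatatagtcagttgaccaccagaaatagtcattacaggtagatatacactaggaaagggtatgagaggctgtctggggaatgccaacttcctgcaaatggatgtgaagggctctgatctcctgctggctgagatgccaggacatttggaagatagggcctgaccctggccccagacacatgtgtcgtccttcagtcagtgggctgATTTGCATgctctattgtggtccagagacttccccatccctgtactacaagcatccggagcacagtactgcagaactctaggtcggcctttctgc
The match in Igll1 began 231 bases before the start and that in Vpreb3 45 bases before it, and neither motif was found in the Vpreb1 window. Of all 32851 promoter windows of this length, 4491 (13.7%) held CCCNNGGG and 570 (1.74%) held the octamer on either strand. The table of promoters used held 9 windows for 8 of the 15 leading B cell genes, and 1 of these windows (11.1%) held each motif. A match of letters describes the window and is not a site shown to be bound.

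Precursor-gene cells differed from Ighd cells in genes outside the 5 that chose them. Their median depth was 8146 UMIs against 4386 in Ighd cells, which bears on every share of cells with a UMI given here and on the rule itself, since a deeper cell meets it more readily. Ms4a1 was found in 2 of the 58 cells and Igkc, the kappa light chain, in 23, whereas Igkc was found in 287 of 298 Ighd cells. Vpreb3 stood at 3459 CPM against 763 in Ighd cells, and Ebf1 at 2727 against 1328. Lef1 and Myb, factors of dividing precursors, stood at 316 and 493 CPM against 9.74 and 28.6 in Ighd cells. The 42 cells with 1 precursor gene were close to precursor-gene cells in Vpreb3 (3339 CPM), Ebf1 (2663 CPM) and Myb (408 CPM) but not in Lef1 (34.99 CPM). At least 2 of the 4 cell cycle genes Mki67, Top2a, Birc5 and Ube2c were found in 26 of 58 precursor-gene cells (44.8%) and in 9 of 298 Ighd cells (3.02%).

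The Ighd cells carried the genes of mature follicular B cells, whose 7 listed members other than Ighd summed to 2022 CPM against 124 in precursor-gene cells. Cd74, the invariant chain of MHC class II, stood at 10601 CPM in them against 192 in precursor-gene cells, and H2-Aa at 2328 against 98.8. Fcer2a, which encodes CD23, stood at 220 CPM against 0 UMIs, and Cr2, a complement receptor, at 113 CPM against 1.39. Cxcr5, which draws B cells into follicles, stood at 92.2 against 2.78. The 42 cells with 1 precursor gene lay between these groups for the receptor genes. Rag1 was the gene in 30 of the 42, Igkc was found in 40, and Ms4a1 in 3. They had more Akap12 (498 CPM) than precursor-gene cells (242) or Ighd cells (60.4), and 10 of 42 held 2 or more cell cycle genes. The 120 other B cells held no Ighd but resembled Ighd cells in part. Their 7 follicular genes summed to 1176 CPM, with Cd74 at 7990 and H2-Aa at 1263 CPM. Ms4a1 stood at 2185 CPM in them against 1704 in Ighd cells. The lack of an Ighd UMI thus does not by itself set a cell apart from mature B cells. Without the cells of a doublet score above 0.5 the groups held 55 precursor-gene, 41 single-gene, 271 Ighd and 13 Jchain cells, and 109 others.

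**Figure D1:**
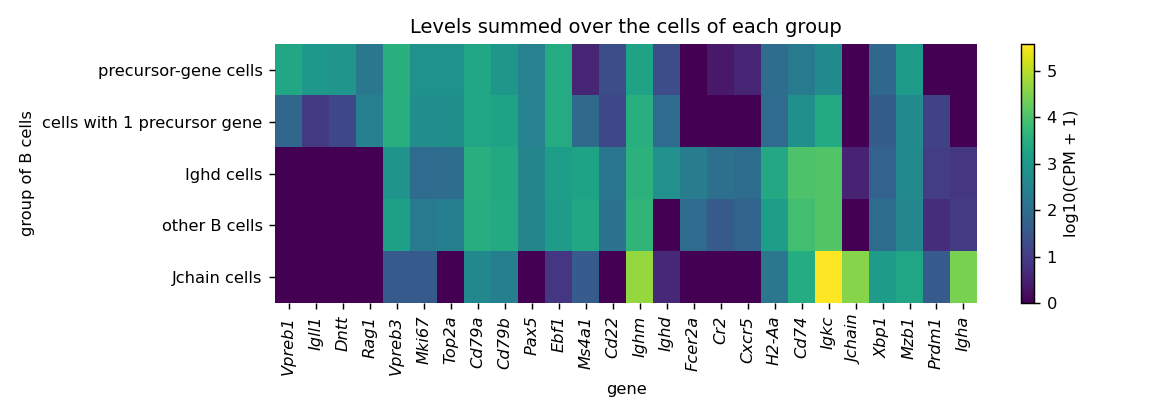
Heat map of selected genes (horizontal axis) in the 5 groups of B cells (vertical axis), coloured by log10 of the CPM summed over the cells of a group plus 1, from dark (not counted) to yellow. Vpreb1, Igll1 and Dntt, which defined the group, are highest in the 58 precursor-gene cells, Cd74 and Fcer2a in the 298 Ighd cells, and Igkc, Jchain and Xbp1 in the 15 Jchain cells.

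The 15 Jchain cells carried the genes of antibody-secreting cells. The 8 plasma cell genes other than Jchain summed to 3762 CPM in them against 575 in Ighd cells and 1446 in precursor-gene cells. They were 2.81% of the B cells but held 74.6% of the 191862 immunoglobulin constant region UMIs. Immunoglobulin took 20.6 to 64.9% of the UMIs of such a cell (median 37.7%), against a median of 1.80% in the other B cells. Xbp1, which drives secretion in plasma cells, stood at 1189 CPM against 55.9 in Ighd cells, and Sdc1, the plasma cell surface marker CD138, at 203 against 0.65. Pax5 was at 0 UMIs and Cd79a at 405 CPM against 3147 in Ighd cells. Prg2 was found in all 15, with 486 of its 488 B cell UMIs, at 1 to 131 UMIs a cell. The heavy chain gene with the most UMIs was Ighm in 12, Igha in 2 and Ighg1 in 1, and all 15 had mostly kappa light chain. In 1 of the 12, from WT at 9 months, Ighm held 103 UMIs beside 11470 of Igkc, so that these counts do not show its isotype. The 2 Igha cells held 5319 and 3517 Igha UMIs and were the only Jchain cells of APP/PS1 at 3 and at 9 months, and the Ighg1 cell held 1324 Ighg1 UMIs and came from Nlrp3KO at 3 months. The Jchain cells came from 8 libraries, 6 from WT at 6 months, 2 each from WT at 9 months and Nlrp3KO at 3 months and 1 each from the 5 others. Outside them, Ighm was found in 99.6% of B cells and Ighd in 62.4%, and switched isotypes were rare, with Igha in 10 cells, Ighg2b in 10, Ighg3 in 5 and Ighg1 in 1. Ighm was found in 23.5% of T cells and 82.7% of dendritic cells, and after thinning each cell to 1000 UMIs in 5.13% and 27.2% against 92.7% of B cells.

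These few cells set the light chain ratio of the whole. Lambda constant genes held 7.19% of light chain UMIs over all B cells and 25.7% without the Jchain cells. By library the share ran from 2.48 to 34.0% with them and from 20.03 to 34.0% without them. Counted by cell, 441 had mostly kappa and 53 mostly lambda, 3 were tied, and 36 held no light chain UMI. Iglc2, a lambda constant gene, was found in 272 of 298 Ighd cells and in all 15 Jchain cells. The shares of UMIs are therefore not shares of cells that use lambda. Variable genes were thinly covered by these libraries, with 90 heavy, 304 kappa and 509 lambda UMIs in all. Iglv1, a lambda variable gene, held 445 UMIs, of which 341 lay in 1 cell, while Igkv10-96, the leading kappa gene, held 59 in 8 cells, at most 19 in a cell.

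The groups were spread unequally over the libraries. Of the 58 precursor-gene cells, 22 were among the 300 B cells of 3 months, 34 among the 145 of 6 months and 2 among the 88 of 9 months. At 6 months they made up 11 of 67 B cells in WT (16.4%, exact interval 8.49 to 27.5%) and 23 of 78 in Nlrp3KO (29.5%, 19.7 to 40.9%). At 3 months they made up 2 of 33 in WT, 5 of 46 in Nlrp3KO, 4 of 48 in APP/PS1 and 11 of 173 in Nlrp3KO APP/PS1, and at 9 months 1 of 27, 0 of 18, 1 of 32 and 0 of 11. Both libraries of 6 months thus lay above the 6.06 to 10.9% of the 4 libraries of 3 months and the 0 to 3.70% of those of 9 months. Age and batch cannot be told apart here, and no test was run on this order.

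**Figure D2:**
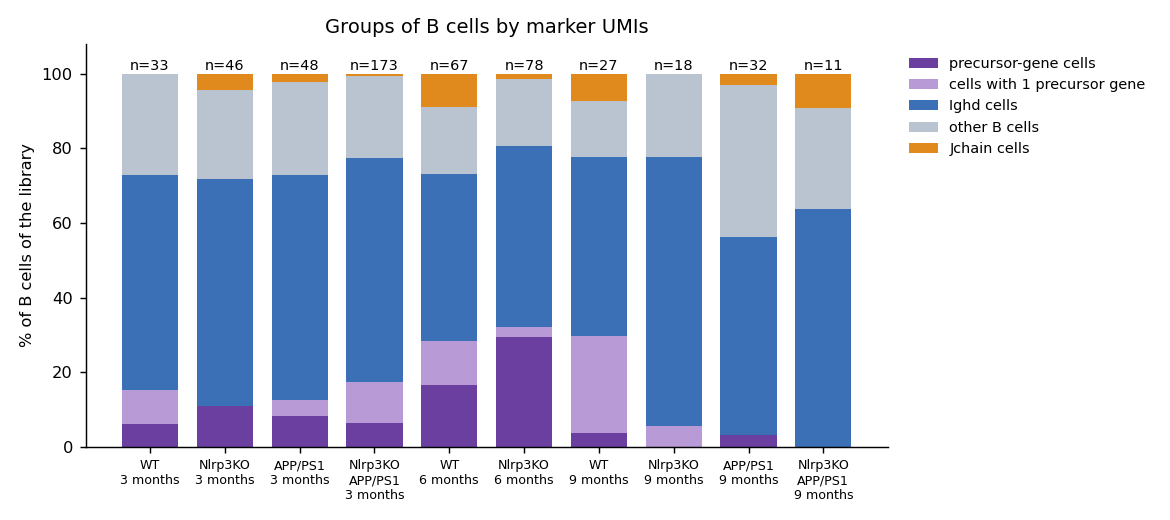
Percent of the B cells of each library in each of the 5 groups, stacked to 100%, with libraries along the horizontal axis by age and genotype and the number of B cells above each bar. Precursor-gene cells reach 16.4% and 29.5% in the 2 libraries of 6 months and 10.9% or less in the other 8.

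The share of B cells among CD45+ cells was not ordered by genotype in the same way at each age. It was 0.436% in WT, 0.737% in Nlrp3KO, 1.43% in APP/PS1 and 1.90% in Nlrp3KO APP/PS1 at 3 months. At 6 months it was 1.59% in WT and 1.85% in Nlrp3KO. At 9 months it was 1.04% in WT, 0.618% in Nlrp3KO, 1.05% in APP/PS1 and 0.495% in Nlrp3KO APP/PS1. Nlrp3KO libraries were thus higher than their controls in the 3 pairs of 3 and 6 months and lower in the 2 pairs of 9 months. The mean difference over the 5 pairs was 0.00971 percentage points ± 0.467 (SD, n = 5; p = 0.9375, two-sided exact permutation of the signs of the differences, where 0.063 is the smallest p possible). Its sign turned negative without doublets, at −0.0329 points, and it ran from −0.106 to 0.152 points over left-out pairs. As a share of the cells outside the microglia the mean difference was 1.75 points ± 4.20 (SD, n = 5, higher in 3 of 5; exact p = 0.4375). APP/PS1 libraries were higher than non-diseased ones by 1.16 and 0.991 points at 3 months and differed by −0.123 and 0.0115 points at 9 months (mean 0.510 ± 0.659, SD, n = 4; p = 0.375 by the exact test, smallest possible 0.13). As a share of the cells outside the microglia, of which T cells made up most in the diseased libraries of 9 months, B cells differed in APP/PS1 by 3.44 and 8.27 points at 3 months and by −5.69 and −7.75 at 9 months, with a mean of −0.432 points. In these values and those before them the Nlrp3KO pair of an age comes first. Without the Nlrp3KO libraries of 3 months the difference in the share of CD45+ cells was 0.293 points. edgeR's quasi-likelihood test on cell numbers of all annotated types gave B cells a log2 fold change of −0.02 for Nlrp3KO (adjusted p = 0.992) and 0.77 for APP/PS1 (adjusted p = 0.221). No value adjusted over the 12 tests of this kind was below 0.75.

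**Figure D3:**
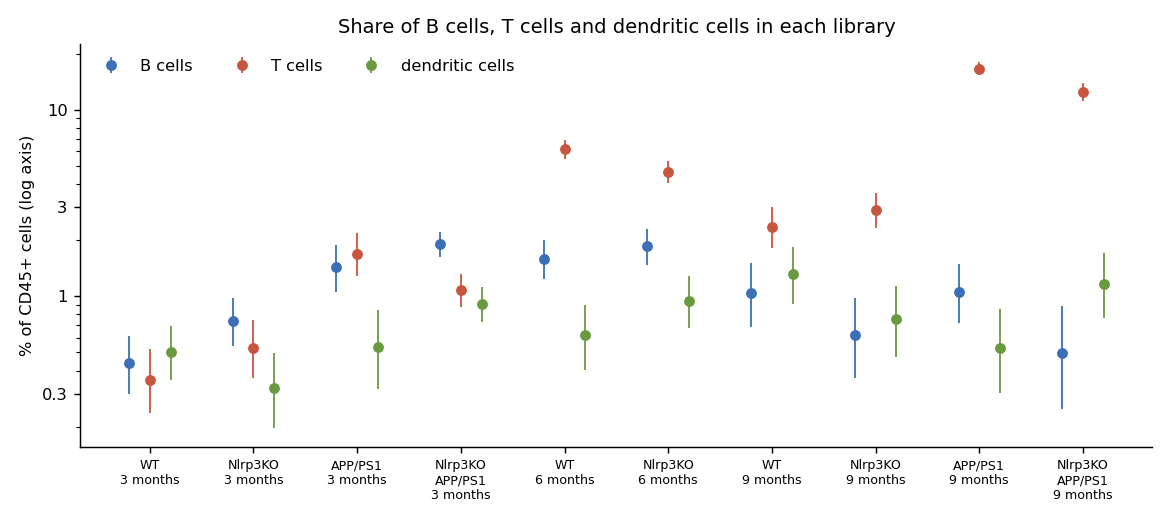
B cells, T cells and dendritic cells as percent of CD45+ cells (log axis) in each of the 10 libraries, by age and genotype along the horizontal axis, with bars for 95% exact binomial intervals that cover counting error only. B cells lie between 0.436 and 1.90%, while T cells rise above them to 16.6 and 12.5% in the 2 diseased libraries of 9 months.

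Set against T cells, B cells were fewest in the diseased brains of 9 months. There were 1.222, 1.39, 0.842 and 1.77 B cells per T cell in WT, Nlrp3KO, APP/PS1 and Nlrp3KO APP/PS1 at 3 months, and 0.259 and 0.398 in WT and Nlrp3KO at 6 months. At 9 months the ratios were 0.443, 0.212, 0.0635 and 0.0396 in the same order of genotypes. The T cells moved beside them, from 0.357 to 1.69% of CD45+ cells at 3 months to 16.6% in APP/PS1 and 12.5% in Nlrp3KO APP/PS1 at 9 months, while B cells in those 2 libraries were at 1.05 and 0.495%. The log2 ratio of B to T cells differed by −1.34 ± 1.5 between APP/PS1 and non-diseased pairs (SD, n = 4, lower in 3 of 4; exact p = 0.25) and by 0.04 ± 0.87 between Nlrp3KO and WT pairs (SD, n = 5; exact p = 0.9375). The first was −0.86 without WT and APP/PS1 of 9 months and −1.91 without the Nlrp3KO libraries of 3 months, and the second ran from −0.22 to 0.31 over left-out pairs. B cells per dendritic cell ran from 0.423 to 2.67, with log2 differences of 0.46 ± 1.19 for APP/PS1 (SD, n = 4; exact p = 0.5) and −0.30 ± 1.27 for Nlrp3KO (SD, n = 5; exact p = 0.625). The first was 0.09 without WT and APP/PS1 of 3 months, 0.18 without those of 9 months and 0.92 without the Nlrp3KO libraries of 9 months, and the second was 0.17 without the diseased pair of 9 months.

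Of the stage measures, the share of B cells with Ighd was the one that moved the same way in all pairs. It was 60.6% in WT against 67.4% in Nlrp3KO at 3 months, 49.3 against 56.4% at 6 months and 59.3 against 72.2% at 9 months. In diseased mice it was 62.5% in APP/PS1 against 65.3% in Nlrp3KO APP/PS1 at 3 months and 53.1 against 63.6% at 9 months. The Nlrp3KO library was thus higher in 5 of 5 pairs, by 8.05 percentage points ± 3.87 (SD, n = 5), while the values of the 2 genotypes overlapped. The exact p of 0.063 is the smallest the design allows, and adjusted over the 12 tests it was 0.75. Thinned to 1000 UMIs a cell, the difference was 9.56 points, and without doublets 6.80 points. The level of Ighd in the same cells, by edgeR, had a log2 fold change of 0.37 ± 0.21 (SE; adjusted p = 0.999), higher in 4 of 5 pairs. Over all B cells Ighd was found in 60.8%, and in 28.7% when thinned to 1000 UMIs a cell, so that this share depends on depth. Ighd was found in 0.751% of T cells and 5.26% of dendritic cells. Among B cells with Xist or a Y-linked transcript but not both, the share with Xist follows the captured cells that came from females. It was also higher in Nlrp3KO in 4 of the 5 pairs, and its part in these differences was not tested. Between APP/PS1 and non-diseased pairs the share with Ighd differed by −3.72 points ± 4.61 (SD, n = 4; exact p = 0.25). That difference was −2.06 points thinned to 1000 UMIs, −2.10 without the Nlrp3KO libraries of 9 months and −5.60 without WT and APP/PS1 of 3 months. The share of B cells with an early B cell gene, Vpreb3 included, ran from 36.4% in Nlrp3KO APP/PS1 at 9 months, which had 11 B cells, to 85.4% in APP/PS1 at 3 months. It differed by −7.93 points ± 19.3 for Nlrp3KO (SD, n = 5; exact p = 0.5) and by 1.78 ± 18.7 for APP/PS1 (SD, n = 4; exact p = 0.875). The Nlrp3KO difference was −0.250 points without the diseased pair of 9 months and −13.1 without the pair of 6 months. The APP/PS1 difference turned negative in 5 of 8 alternatives, at −0.474 points thinned, −7.06 without Vpreb3, −0.704 with 2 of the 5 genes required, −0.456 without the Nlrp3KO libraries of 3 months and −3.88 without WT and APP/PS1 of 3 months. The lambda share differed by 4.94 points ± 18.0 and −12.6 ± 17.4 (SD, n = 5 and n = 4; exact p = 0.625 and 0.5), and without the Jchain cells by 0.588 and −1.79. Counted as the share of cells with mostly lambda, the differences were 3.15 and −1.71 points. Without the non-diseased pair of 9 months the first was −1.56 and without that of 3 months 10.8, and the second was −6.32 without the Nlrp3KO libraries of 9 months.

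Across genes, B cells of Nlrp3KO and WT mice did not pass the threshold of adjusted p under 0.05 and a log2 fold change beyond 1 for any gene. Of 3511 genes tested by edgeR's quasi-likelihood test on UMIs summed per library, with the pair as a block, 0 (0%) were called, 86 (2.45%) had an unadjusted p under 0.05, 41 of them higher (1.17%) and 45 lower (1.28%) in Nlrp3KO, and DESeq2 called 1. In every pair 95 genes (2.71%) were higher and 95 (2.71%) lower, 190 (5.41%) in all. The gene nearest to the threshold, and the one DESeq2 called, was Gm8797, a pseudogene in RefSeq whose reads may be shared with a near-identical copy, so that its count is uncertain. In non-diseased mice it stood at 0, 6.90 and 58.3 CPM in WT at 3, 6 and 9 months and at 76.5, 203 and 120 CPM in Nlrp3KO at the same ages. In diseased mice it stood at 7.19 and 21.2 CPM in APP/PS1 at 3 and 9 months and at 101.4 and 98.5 CPM in Nlrp3KO APP/PS1. The 2 genotypes did not overlap, and the log2 fold change was 3.22 ± 0.47 (SE, higher in 5 of 5 pairs; edgeR adjusted p = 0.0515). The same order held in T cells, with 105 to 185 CPM in Nlrp3KO against 4.28 to 50.1, and in dendritic cells, with 65.1 to 117 against 11.6 to 24.6. Ubb, a ubiquitin gene, ran from 1357 to 1912 CPM in Nlrp3KO B cells and from 1469 to 1810 in the others.

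**Figure D4:**
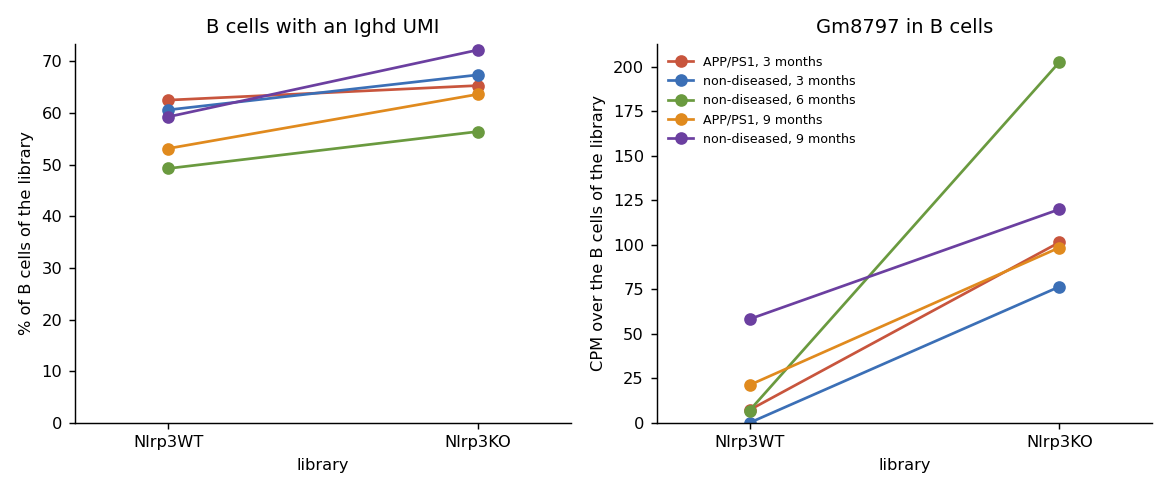
Values in the 5 pairs of Nlrp3-sufficient and Nlrp3KO libraries, joined by lines: the percent of B cells with Ighd and the level of Gm8797 in B cells in CPM. Both are higher in Nlrp3KO in 5 of 5 pairs, and only the Gm8797 values of the 2 genotypes are separate.

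The genes that followed stayed far from the threshold. Nfkbid, which encodes a nuclear regulator of NF-kB, had a log2 fold change of −1.53 ± 0.31 (SE, lower in 5 of 5 pairs; edgeR adjusted p = 0.513). Apopt1 and Ppp1r10 were at 1.07 and 1.0 and Tfrc, the transferrin receptor, at −1.22 (adjusted p = 0.849 for each by edgeR). S100a6, a calcium-binding protein gene of the B-1 list, had an estimate of 3.36 ± 0.83 (higher in 5 of 5 pairs; adjusted p = 0.849). Of its 686 UMIs 3 cells held 503, 253 in Nlrp3KO APP/PS1 and 98 in Nlrp3KO at 9 months and 152 in Nlrp3KO at 6 months. Those 3 cells also held 21, 13 and 26 UMIs of Tppp3. Of the 215 genes in the lists, 111 were tested and 10 (9.01%) had an unadjusted p under 0.05, 3 of them higher and 7 lower in Nlrp3KO, with 0 called. The 3 higher were S100a6, Ciita and H2-Aa. The 7 lower had log2 fold changes of −0.79 for Bst2, −0.50 for Jun, −0.57 for Cd40, −0.45 for Ifi27l2a, −0.84 for Xbp1, −0.59 for Il21r and −0.38 for Iglc2, each with an edgeR adjusted p of 0.999. Jun, an immediate early gene, and Cd40, the receptor for T cell help, were lower in 5 of 5 pairs and the others in 4 of 5. All 3 interferon-stimulated genes that were tested had estimates below 0, with a median of −0.48. The 10 MHC class II genes all had estimates above 0 with a median log2 fold change of 0.31, against 0.00 over all genes tested. Among them Ciita, their master regulator, was at 0.57 ± 0.25 (unadjusted p = 0.0409) and H2-Aa at 0.40 ± 0.18 (unadjusted p = 0.0459), both higher in 5 of 5 pairs and both with an edgeR adjusted p of 0.999. Of the 10 class II genes 3 moved the same way in every pair. The 10 genes summed lower in Nlrp3KO than in WT at 3 months (11625 against 13820 CPM) and higher in the other pairs. The estimates of the lineage transcription factors were below 0 for 9 of 12 and those of the early B cell genes for 8 of 10. The smallest unadjusted p in these lists by edgeR was 0.0940 and 0.0894, and the median over all genes tested was 0.00. The receptor genes were near 0, with Cd79a at −0.00 ± 0.15, Cd79b at −0.13 ± 0.18 and Ms4a1 at 0.08 ± 0.25 on the log2 scale.

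Between APP/PS1 and non-diseased B cells 1 gene passed the threshold, Slpi, which encodes the secretory leukocyte protease inhibitor, and it did so through 4 cells. Of 2639 genes tested, Slpi was the 1 called (0.0379%), and 54 (2.05%) had an unadjusted p under 0.05, 28 higher (1.06%) and 26 lower (0.985%). In every pair 155 genes (5.87%) were higher and 142 (5.38%) lower, 297 (11.3%) in all. The B cells of WT and Nlrp3KO held 3 and 12 Slpi UMIs at 3 months and 3 and 0 at 9 months. Those of APP/PS1 and Nlrp3KO APP/PS1 held 133 and 327 at 3 months and 41 and 18 at 9 months. The groups did not overlap within either age or in CPM over the 8 libraries, at 197 to 365 CPM against 0 to 36.7, and the log2 fold change was 3.78 ± 0.37 (SE, higher in 4 of 4 pairs; edgeR adjusted p = 0.000618). WT at 6 months, which has no diseased partner, held 38, of which 22 lay in Jchain cells. In each diseased library a single Jchain cell held nearly all of it, 131 of 133, 324 of 327, 39 of 41 and 18 of 18 UMIs. These 4 cells had 832 to 10553 Slpi CPM each. The 11 Jchain cells of non-diseased libraries had 0 to 614 CPM, so that the Jchain cells of the 2 backgrounds did not overlap. Of these 11, however, 7 came from 6 months, an age without diseased libraries. The 4 of 3 and 9 months also had 0 to 614 CPM. WT at 3 months and Nlrp3KO at 9 months held 0 Jchain cells, so in their pairs a Jchain cell was set against none. The 4 Jchain cells of diseased libraries were also the highest in Jchain, at 43712 to 77480 CPM against 5065 to 37088 in the 11. They held 21640 to 45715 UMIs against 5590 to 37114. With 1 cell in each diseased library these levels are a description. Without the Jchain cells Slpi fell below the filter on low counts and 0 genes were called of 2517 tested, where 56 had an unadjusted p under 0.05.

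**Figure D5:**
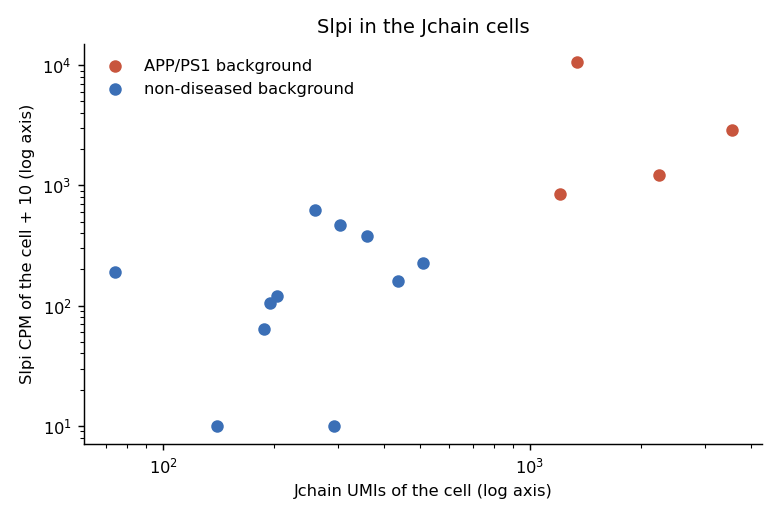
Slpi CPM plus 10 against Jchain UMIs in each of the 15 Jchain cells, 1 point per cell, both axes on a log scale, coloured by background. The 4 cells of APP/PS1 libraries, 1 from each, lie above the 11 cells of non-diseased libraries on both axes, at 832 to 10553 Slpi CPM against 0 to 614.

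Other genes named by the rule did not pass in APP/PS1. Tmem176b and Tmem176a, paired membrane protein genes, were at log2 fold changes of 1.51 ± 0.33 and 1.43 ± 0.36 (SE, each higher in 4 of 4 pairs; edgeR adjusted p = 0.804 and 1.0). Bcl2a1b, a survival gene of the Bcl2 family with close copies, was at −1.15 ± 0.32, lower in 4 of 4 pairs, and Txndc5, an enzyme of protein folding in secretory cells, at 1.31 ± 0.37, higher in 3 of 4 (edgeR adjusted p = 1.0 for both). Without the Jchain cells Tmem176b and Tmem176a, like Slpi, were not among the genes tested. Txndc5 was then at 0.76 and Bcl2a1b at −1.16. Of the listed genes 106 were tested, 6 (5.66%) had an unadjusted p under 0.05, and 0 were called. They included Jchain, Igkc and Xbp1, with estimates above 0 and most UMIs of each in Jchain cells, and Bach2 and Stmn1, with estimates below 0. Bach2, which holds B cells back from becoming plasma cells, was at −0.98 ± 0.31, lower in 4 of 4 pairs (edgeR adjusted p = 1.0). All 6 proliferation genes had estimates below 0 with a median of −0.65, and so had the 8 tested microglia markers with a median of −0.53, against 0.01 over all genes. Of the proliferation genes 2 moved the same way in every pair. The list summed higher in APP/PS1 than in WT at 3 months (1206 against 777 CPM) and lower in the other pairs. The microglia markers summed higher in APP/PS1 in 2 of 4 pairs, and 0 of the 8 moved the same way in all. Natural killer cell markers, near the floor with 0 genes tested, summed to 5.30 to 10.9 CPM in APP/PS1 and 0 in their partners. The MHC class II genes were above 0 for 9 of 10 with a median of 0.18, and Nlrp3 was below the filter in both comparisons.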

How the data were processed

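Cells were sorted as CD45+ from brains of 10 pools of mice, and droplet 3′ libraries were read with Cell Ranger on mm10. The deposited matrix holds UMI counts per gene and cell for 31053 genes after the authors removed outlier cells and log-normalized, corrected and clustered the rest to annotate cell types. The authors also deposited, per cell, the percent of mitochondrial UMIs, the fraction of ribosomal UMIs and a doublet score between 0 and 1, whose caller is not given in the sources used here. Counts in CPM are not corrected for gene length, which 3′ counting does not need, and levels were compared within genes.

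B cells were taken from that annotation. The cells and gene lists were chosen with earlier results of these data known. A further 2 sample names without a label, with 6897 cells and 99 of them B cells, were not used. UMIs were summed over the B cells of a library, since cells are not replicates. Genes were tested with edgeR 4.0.16 (R 4.3.3) by the quasi-likelihood test with TMM factors, filterByExpr and the pair as a block, with Benjamini-Hochberg adjustment and a call at adjusted p under 0.05 and absolute log2 fold change over 1. DESeq2 1.42.0 was an alternative. Libraries were paired by age so that the members of a pair differed only in Nlrp3 or only in the APP/PS1 transgenes, and each needed 10 B cells. Deviations of the 2 libraries of a pair correlated at 0.062 to 0.443 for Nlrp3 and 0.235 to 0.373 for APP/PS1 over the genes tested. Shares, and ratios with 0.5 added to each count, were tested by exact permutation of the signs of the differences over pairs. Each library is 1 pool, and no genotype at an age has a further pool. The p-values therefore measure how a difference varies between pairs, which also differ in age, batch or genotype, and not between replicate pools. Intervals of shares are exact binomial at 95% (scipy 1.17.1) and cover counting error only, as does the floor of 3 counts.

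Genes are named by rule: the markers and Nlrp3, the most abundant or stage-defining members of 25 lists, the called genes or the 5 with the smallest p in each fit, the 15 furthest above T cells and dendritic cells, the leading variable genes, and 6 genes that earlier results on microglia named. Of the genes that earlier results on microglia named, Gm8797 and Ubb are described above. Hist3h2a had a log2 fold change of −0.83 for Nlrp3KO and Grap of −0.21 (edgeR adjusted p = 0.999 for both). Grap was at 0.45 for APP/PS1 and was not called. Pttg1 and Irgm2 are not described. Prg2 and Tppp3 cell counts, the Jchain and precursor thresholds and the fits without those cells were chosen after values were seen. Alternatives changed the tool, normalization, filter, block, cell minimum, doublets, depth, definition of B cells and pairs used.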

Additional observations from a re-analysis of the deposited data

Results flagged for a closer look

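In 3 results every pair of one kind moved one way and every pair of the other kind the opposite way, with 2 pairs on each side. None of these differences was tested. They came from a search of 12 results, each split by age and by genotype or background. A search of this size can give some such patterns by chance. The Nlrp3KO minus WT difference in the share of B cells was 0.386 percentage points on average in the 2 pairs of 3 months and −0.492 in the 2 of 9 months, a difference of 0.878 points between the ages, which are also batches. The log2 ratio of B cells to T cells moved likewise, by 0.63 at 3 months and −0.84 at 9 months, a difference of 1.47. The log2 ratio of B cells to dendritic cells in APP/PS1 against non-diseased mice was −0.52 in the 2 Nlrp3KO pairs and 1.45 in the 2 Nlrp3-sufficient pairs, a difference of −1.97. The B cells behind these values numbered 11 to 173 and the dendritic cells 16 to 83 per library.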

How the results depend on the processing

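The Nlrp3KO difference in the share of B cells turned sign on the log odds scale (−0.0585), without doublets (−0.0329), by edgeR on cell numbers (log2 −0.0178), and over left-out pairs ran from −0.106 to 0.152 points. The differences became 1.75 points for Nlrp3KO and −0.432 for APP/PS1 with cells outside the microglia as denominator. The log2 ratio of B to T cells for Nlrp3KO became −0.0222 without doublets and ran from −0.22 to 0.31 over left-out pairs, and that of B to dendritic cells from −0.72 to 0.17. The early gene share for Nlrp3KO became 1.81 points when 2 of 5 genes were required, −4.59 without Vpreb3, and ran from −13.1 to −0.250 over left-out pairs. For APP/PS1 it became −0.474 thinned, −7.06 without Vpreb3 and −0.704 with 2 of 5 genes, and ran from −3.88 to 10.6 over left-out pairs. The lambda share for Nlrp3KO ran from −1.56 to 10.8 and for APP/PS1 from −17.6 to −6.32, and the APP/PS1 log2 ratio of B to T cells from −1.91 to −0.86. The Ighd difference for Nlrp3KO stayed between 6.80 and 9.56 points under its 7 alternatives, with exact p of 0.063 to 0.13. None of these shares and ratios passed a threshold under any alternative, which exact tests on 5 or 4 pairs cannot do.

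In the Nlrp3KO gene fit 1 gene was called by DESeq2, with RLE factors, with additive terms and no replicate block, without doublets, without immunoglobulin genes, without Jchain cells, without precursor-gene cells and without all of these cells, 2 with at least 20 B cells, 17 with no filter on low counts, and 0 to 2 over left-out pairs. Gm8797 was called in 11 of its 16 alternatives, with log2 fold changes from 2.57 to 4.46 over all 16. It was not called with every pair kept, which repeated the main fit because all libraries met the cell minimum, or without 4 of the 5 pairs in turn. In the APP/PS1 fit the count was 16 with no filter, 0 without Jchain cells, 0 without Jchain, precursor-gene and doublet cells, and 1 to 3 over left-out pairs. Slpi kept its call in the 13 alternatives in which it was tested. Each of these kept the Jchain cells that held nearly all Slpi UMIs of the diseased libraries, so these calls are no further check. With every pair kept the fit repeated the main fit. With at least 20 B cells it was the same as without the Nlrp3KO libraries of 9 months. Sets without Jchain or precursor-gene cells, and the changed early gene rules, were chosen after seeing the data. The labels number every library as replicate 1, so the pair rests on age and genotype.

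Depth was limited by the number of B cells, 11 in the smallest library. Genes under the filter, Nlrp3 among them, were compared only in the fits with no filter. There Nlrp3 had log2 fold changes of −3.06 for Nlrp3KO and −2.73 for APP/PS1 (edgeR adjusted p = 0.999 for both), from at most 4 UMIs.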

Other observations

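Transcripts of the sex chromosomes bear on which animals of a pool the captured B cells came from, and 135 of the 533 B cells held neither kind. Of the 384 B cells with either Xist, the long RNA of the inactive X chromosome, or a transcript of 4 Y-linked genes but not both, 32.0% held Xist, against 46.1% of T cells and 38.8% of dendritic cells. By library the share in B cells ran from 8.33% in WT at 3 months (2 of 24, 95% exact interval 1.03 to 27.0%) to 70% in WT at 9 months (14 of 20, 45.7 to 88.1%). The share was 41.2% in Nlrp3KO against 8.33% in WT at 3 months, 41.4 against 20.8% at 6 months and 20 against 70% at 9 months, and in diseased mice 36.5% in Nlrp3KO APP/PS1 against 17.1% in APP/PS1 at 3 months and 50 against 15.4% at 9 months, so that it was higher in Nlrp3KO in 4 of 5 pairs. Xist itself was called in the Nlrp3KO fit without the non-diseased pair of 9 months (log2 fold change 1.45; edgeR adjusted p = 0.0390) and was at 0.82 ± 0.51 (SE; adjusted p = 0.999) with all 5 pairs. Each pool held 2 males and 1 female. The Xist share of the WT pool of 3 months was 58.3% in T cells and 19.2% in dendritic cells. Such a share is thus not the mix of animals in a pool. The part of these shares in the comparisons above was not tested.

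WT at 9 months had the largest share of B cells with a single precursor gene. Cells with exactly 1 of the 5 precursor genes, which was Rag1 in most such cells over all libraries, were 7 of its 27 B cells (25.9%, 95% exact interval 11.1 to 46.3%) and 0 to 11.9% of the B cells in the other 9 libraries. Of the other libraries of 9 months, Nlrp3KO held 1 such cell among 18, and APP/PS1 and Nlrp3KO APP/PS1 held 0 among 32 and 11. No test was run on these counts, each of which comes from 1 pool.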
